A study of Mus musculus with 4 samples.

Results

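The genes described here are 33 components of the Polycomb repressive complexes and of the DNA methylation machinery, out of 18193 genes measured by microarray in haematopoietic progenitors of the mouse foetal liver. They were chosen by name and not by their values, though with earlier results of these data known. Of the 33 genes, 9 belong to Polycomb repressive complex 2 (PRC2), 17 to PRC1 or to the Polycomb deubiquitinase (PR-DUB), and 7 write, maintain or remove DNA methylation. A gene was measured by the probe sets that the platform annotation gives to that gene alone, 91 in all for the 33 genes. Where a gene had several, the probe set with the highest mean log2 intensity over the 4 arrays was used and the others are given beside it. All 33 genes had a probe set, and no filter on level was applied.

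The cells were lineage-negative, cKit-positive and Sca1-positive (LSK) cells, the foetal liver fraction that holds stem cells and multipotent progenitors, from female embryos at E13.5. Every sample, the controls included, came from the genotype Hes1 GFP/WT, in which 1 allele of Hes1 carries a GFP reporter and the other is wild type. Hes1 is a transcriptional repressor induced by Notch signalling. The samples were 3 arrays labelled HES1-GFP negative (replicates 1 to 3) and 1 labelled HES1-GFP positive, and the comparison is between these labels. The labels do not say whether embryos were pooled or whether the negative replicates came from separate litters or sorts, so the spread between them may be partly technical.

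PRC2 places methyl groups on lysine 27 of histone H3 through its catalytic subunit, EZH2 or EZH1, held together with EED and SUZ12. PRC1 places ubiquitin on histone H2A through RING1 or RNF2 (RING1B), each paired with a PCGF protein; canonical PRC1 also holds a CBX protein, which reads the PRC2 mark, and a PHC protein, which polymerises, while variant PRC1 lacks the CBX reader. PR-DUB, which holds an ASXL protein, removes the ubiquitin again. DNMT3A and DNMT3B set DNA methylation, DNMT1 with UHRF1 copies it at replication, and the TET enzymes oxidise it. Bmi1, Ezh1, Dnmt3a, Tet2 and Asxl1 are among the genes known for their part in blood stem cell self-renewal or in blood cancers.

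Hes1 itself went against the labels. The array labelled positive was the lowest of the 4 for Hes1, with a log2 intensity of 6.57, and negative replicates 1, 2 and 3 were at 8.78, 9.07 and 6.70. Directions below are therefore those of the array labelled positive. The cells carried progenitor transcripts on all arrays. Kit was at 9.90, 9.72, 9.68 and 10.13 in the same order and Cd34 at 11.42, 10.80, 11.70 and 11.87, while Ly6a, which encodes Sca1, was not analysed here. Of 11 measured LSK markers the array labelled positive lay above the negative range in 5, Kit and Cd34 among them, where 23.6% of all genes did. It lay below the range in 1, where 23.0% of all genes did. That gene was Flt3, a receptor of multipotent progenitors, at 12.12, 11.95, 11.63 and 11.07. Marker sums of macrophage, B lineage, granulocyte and endothelial cells differed between arrays and not along the labels. The summed intensity of 10 macrophage markers was 28301, 27721 and 7444 in negative replicates 1, 2 and 3 and 6801 in the array labelled positive, and that of 8 B lineage markers was 21601, 21539, 3841 and 3869. For 8 granulocyte markers the sums ran the other way, at 36842, 37567, 64263 and 64265, and for 7 endothelial markers they were 3630, 2903, 834.1 and 702.3. By these sums negative replicate 3 lay with the array labelled positive in each of the 4 lists. Such sums weigh the brightest genes most, and some genes went otherwise. Cd163 and Esam were lowest in the array labelled positive, with negative replicate 3 nearer to replicates 1 and 2. Tek was higher in negative replicate 3 and the array labelled positive, against the endothelial sum. The sums of 6 erythroid markers ranged from 14173 to 18294, those of 5 megakaryocyte markers from 1429 to 2417 and those of 7 hepatoblast markers from 1838 to 2892. Among all these markers, Hba-a1 and Gp1bb lay under the median gene level on every array. The part of these cells in the results below was not tested, and in such bulk samples fewer cells of a type and less RNA per cell cannot be told apart.

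No Polycomb or DNA methylation gene passed the test between the labels. limma called 0 of the 33 genes at an adjusted p under 0.05, as it called 0% of all 18193 genes, and the lowest adjusted p among the 33 was 0.980, for Cbx2. At an unadjusted p under 0.05 limma gave 2 of the 33 genes, Cbx2 and Pcgf2, against 4.03% of all genes (734). Without negative replicate 3 these counts were 3 of the 33 and 1479 of all genes. The spread in this test came from the 3 negative arrays alone, the single positive array being assumed to vary like them, and with 4 arrays an exact permutation test can reach no p below 0.25. A count of 0 from so few arrays does not show that the genes were alike under the 2 labels. The median difference of the 33 genes was 0.02 log2 units (positive minus the mean of the negatives), against -0.001 for all genes.

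Described by position, the array labelled positive lay above all 3 negative arrays in 12 of the 33 genes, where 23.6% of all genes lay so. It lay below them in 8, where 23.0% of all genes did, and within their range in 13 (53.4% of all genes). Each probe set was chosen by its mean over all 4 arrays, so the array labelled positive took part in the choice, as it did for all genes. By the mean over the negative arrays alone, Jarid2, Rnf2 and Asxl2 would take another probe set. Those put the array labelled positive below the negative range in Jarid2 and inside it in Rnf2 and Asxl2. By complex, PRC2 had 3 genes above, 1 below and 5 within the negative range. PRC1 and PR-DUB had 7 above, 6 below and 4 within. The DNA methylation genes had 2 above, 1 below and 4 within. Cbx2 alone lay at least 1 log2 unit outside the negative range, on the lower side, as did 0.566% of all genes. On the higher side 0 of the 33 genes did, against 0.841% of all genes. The difference between labels had a median absolute size of 0.08 log2 units in PRC2, 0.44 in PRC1 and PR-DUB and 0.27 in the DNA methylation genes, against 0.20 over all genes.

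**Figure D1:**
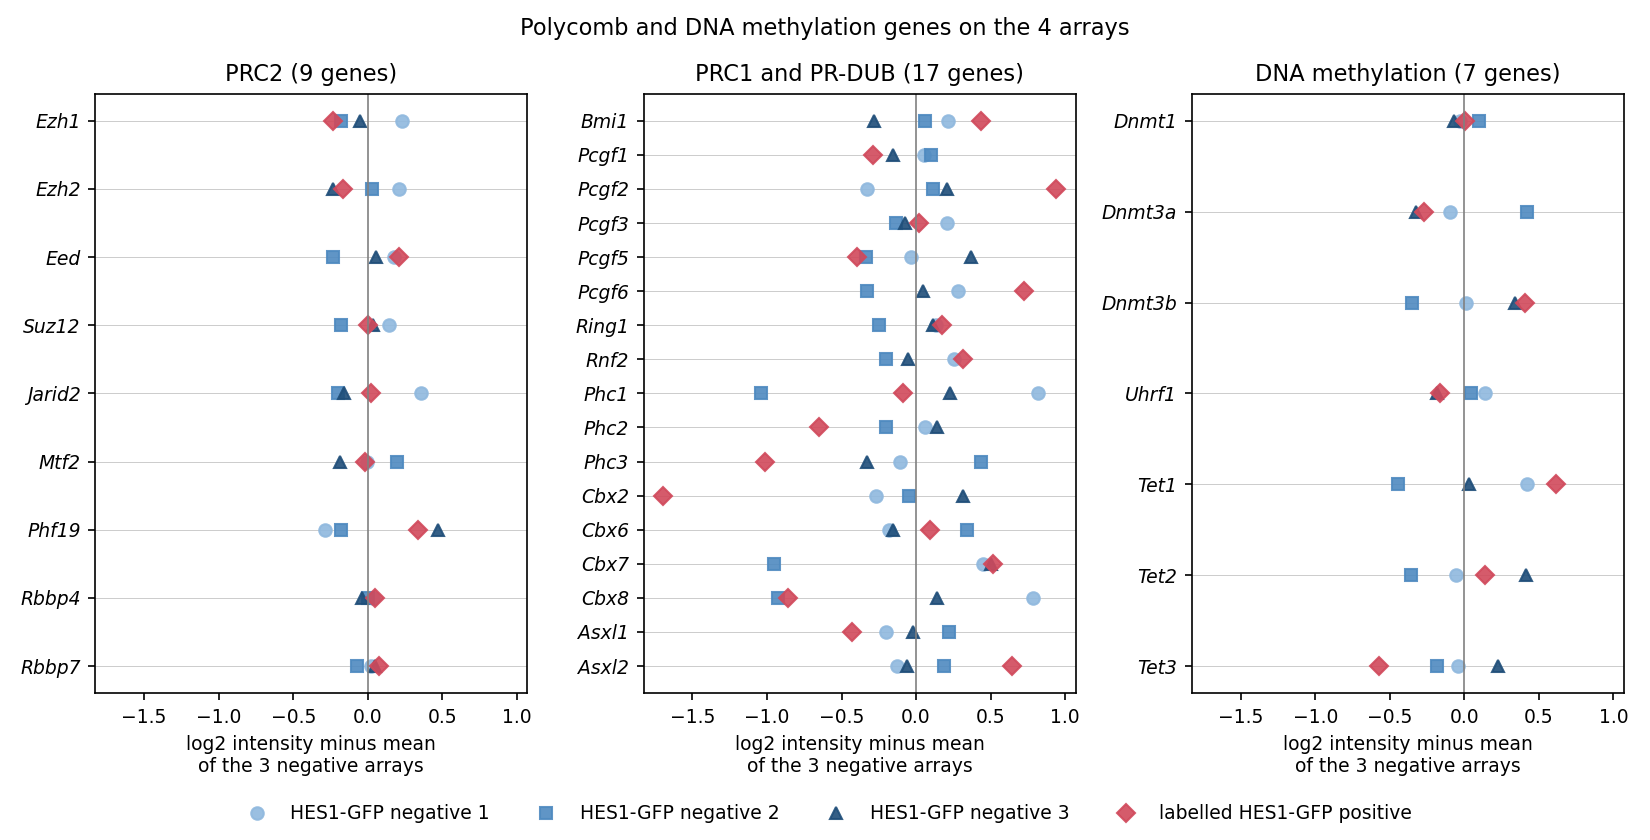
Log2 intensity of each gene on each of the 4 arrays, minus the mean of its 3 negative arrays (the vertical line at 0), with 1 panel for each group of genes and 1 marker for each array. PRC2 genes stay within 0.34 log2 units of the line in the array labelled positive, whereas among PRC1 and PR-DUB genes the array labelled positive runs from -1.70 for Cbx2 to 0.94 for Pcgf2.

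The PRC2 core was steady across all 4 arrays. Suz12, the scaffold subunit, was at 11.26, 10.94 and 11.16 log2 units in negative replicates 1, 2 and 3 and at 11.12 in the array labelled positive, inside the negative range, with a difference of 0.005 ± 0.23 (SE). The other probe sets of Suz12 differed by -0.24 to 0.06. Eed, which binds the methylated histone and activates the enzyme, was at 10.92, 10.51 and 10.80 against 10.95. Here the array labelled positive was the highest, by 0.03 log2 units over replicate 1. Rbbp4 and Rbbp7, histone-binding subunits that other chromatin complexes also use, ranged over 0.09 and 0.15 log2 units across the 4 arrays, the narrowest ranges among the 33 genes. Both were read from probe sets of the _x_at kind, which may take up signal from related transcripts, and the 2 genes are close paralogs, so their separate values are uncertain. Other probe sets of Rbbp4 ranged over 0.33 to 0.81 log2 units.

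The catalytic subunits also kept close to the negative arrays. Ezh2, the methyltransferase of dividing cells, was at 10.94, 10.76 and 10.50 in negative replicates 1, 2 and 3 and at 10.57 in the array labelled positive, with negative replicate 3 the lowest. The difference between labels was -0.16 ± 0.26 (SE), smaller than the standard error. Ezh1, the paralog associated with resting cells, was at 8.43, 8.01 and 8.14 against 7.96, below the negative range by 0.05 log2 units. Its other 3 probe sets each placed the array labelled positive inside the negative range, and with all 4 averaged its difference changed sign, from -0.23 to 0.02. The dimmer of these ranged over 2.35 and 2.84 log2 units across the 4 arrays, so a place inside the range says little there. Neither enzyme passed the limma test, with an adjusted p of 1 for Ezh1 and Ezh2.

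Among the accessory subunits of PRC2, Phf19 and Jarid2 varied most. Phf19, a Tudor domain protein that helps recruit PRC2, was at 6.76, 6.87 and 7.51 in negative replicates 1, 2 and 3 and at 7.38 in the array labelled positive. Replicate 3 and the array labelled positive were the higher arrays, and the labels overlapped. Jarid2, which guides PRC2 to its sites, was at 9.84, 9.28 and 9.33 against 9.50, with replicate 1 the highest. Its other 2 probe sets had the array labelled positive as the lowest of the 4, with differences of -0.37 and -0.63, so the probe sets of Jarid2 disagreed. Mtf2, a relative of Phf19, differed by -0.02, with other probe sets from -1.20 to 0.53.

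PRC1 and PR-DUB genes differed more from array to array than PRC2 genes. Their range over the 4 arrays had a median of 0.77 log2 units, close to the 0.76 of the DNA methylation genes and against 0.44 for PRC2 and 0.54 for all genes. It reached at least 1 log2 unit in 7 of the 17 PRC1 and PR-DUB genes and in 1 of the 7 DNA methylation genes. Of all genes, 24.8% had such a range. Among the 9747 genes at least as bright as the dimmest of the 33, the median range was 0.69 log2 units and 29.1% reached 1. This single cut does not show how the range changes with brightness above it.

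The E3 ligase core of PRC1 ranged over 0.42 (Ring1) and 0.51 (Rnf2) log2 units across the 4 arrays in the probe sets used. Ring1 was at 8.61, 8.23 and 8.59 in negative replicates 1, 2 and 3 and at 8.65 in the array labelled positive, only 0.04 above replicate 1. Rnf2, the main ligase of the pair, was at 10.10, 9.65 and 9.79 against 10.16. Replicate 2 was the lowest array in both genes. A second probe set of Rnf2, at 10.53, 9.98, 9.45 and 9.48, gave a difference of -0.51 in place of 0.31. It ranged over 1.08 log2 units and put the array labelled positive inside the negative range. The dimmer probe sets of Rnf2 differed by -0.16 to 0.10.

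The PCGF partners, which define the type of PRC1, lay on both sides of the negative arrays, and limma called none of them. Bmi1 (Pcgf4), a partner in canonical PRC1, was at 9.39, 9.23 and 8.89 in negative replicates 1, 2 and 3 and at 9.61 in the array labelled positive, the highest of the 4. Its second probe set put the array labelled positive, at 8.58, inside the negative range. Pcgf2 (Mel18), the other canonical partner, was at 7.20, 7.65 and 7.74 against 8.47, which is 0.73 above the highest negative array. Its difference of 0.94 ± 0.30 (SE), or 1.92 times the negative level, was the largest on the higher side among the 33 genes, with a limma adjusted p of 1. A second, dimmer probe set of Pcgf2 gave -0.15, and the average of both gave 0.39.

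The partners of variant PRC1 also lay on both sides. Pcgf6, found in a germline-gene repressing PRC1, was at 8.98, 8.37 and 8.74 in the negative replicates and at 9.42 in the array labelled positive, a difference of 0.73 ± 0.31 (SE). Its values, like those of Phc2, Asxl1 and Asxl2 below, were picked out for printing after they were seen. The other probe sets of Pcgf6 differed by -0.28 and 0.86, with the array labelled positive inside the negative range. Pcgf5 differed by -0.40 in the probe set used and by 0.63 and 0.18 in its other probe sets. Pcgf1, the partner in the BCOR complex, lay below the negative range with a difference of -0.29 and had a single probe set. Pcgf3 differed by 0.02 in the probe set used and by -0.38 and 0.61 in its others. Of the 6 PCGF genes, 3 lay above the negative range, 2 below and 1 within it, where 23.6%, 23.0% and 53.4% of all genes did.

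The chromodomain reader Cbx2 differed most between the labels among the 33 genes. It was at 8.64, 8.86 and 9.22 in negative replicates 1, 2 and 3 and at 7.21 in the array labelled positive. The array labelled positive was thus 1.43 log2 units under the lowest negative array. The difference was -1.70 ± 0.30 (SE), or 0.309 times the negative level of 8.90 ± 0.29 (SD, n = 3), with a limma adjusted p of 0.980. The second probe set of Cbx2 gave another picture, at 8.85, 8.90 and 7.74 against 7.94. There negative replicate 3 was the lowest array, the labels overlapped and the difference was -0.56. Without negative replicate 3 the difference in the probe set used was -1.54.

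The other CBX readers varied as much among the negative arrays as between labels. Cbx8 was at 7.87, 6.15 and 7.22 in negative replicates 1, 2 and 3 and at 6.22 in the array labelled positive, close to replicate 2. Cbx7, a main reader in stem cells of the blood, was at 7.69, 6.28 and 7.74 against 7.75, with replicate 2 alone low. In neither gene did the labels separate by more than 0.02 log2 units. Cbx6 differed by 0.09. The second probe set of Cbx8 differed by 0.32, opposite to the -0.86 of the probe set used.

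The polyhomeotic genes included a pair on the lower side. Phc2 was at 10.28, 10.02 and 10.36 in negative replicates 1, 2 and 3 and at 9.57 in the array labelled positive. The array labelled positive was the lowest by 0.45, and the second probe set repeated this, at 10.13, 9.72 and 10.16 against 9.41. The differences were -0.65 ± 0.24 (SE) and -0.59, so Phc2 gave like values in both probe sets. The second is of the _x_at kind, which may take up signal from related transcripts. Phc3 was at 9.09, 9.63 and 8.87 against 8.18, a difference of -1.01 ± 0.37 (SE). Its second probe set was dim on all arrays, from 2.73 to 4.05, and placed the array labelled positive inside the negative range. Phc1 was at 9.93, 8.07 and 9.34 against 9.03, and its range of 1.86 log2 units lay among the negative arrays.

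The ASXL genes of PR-DUB lay on opposite sides. Asxl1, the regulatory subunit often mutated in myeloid disease, was at 10.60, 11.02 and 10.78 in negative replicates 1, 2 and 3 and at 10.37 in the array labelled positive. Its other probe sets were at 9.54, 11.01, 10.18 and 9.40 and at 8.94, 9.08, 9.71 and 8.77 in the same order. The array labelled positive was the lowest in all 3, with differences of -0.43, -0.84 and -0.47. Asxl2, its paralog, was at 8.88, 9.20 and 8.95 against 9.65, a difference of 0.64 ± 0.23 (SE). Each of its other 4 probe sets placed the array labelled positive inside the negative range, and the probe set brightest over the negative arrays gave -0.22.

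**Figure D2:**
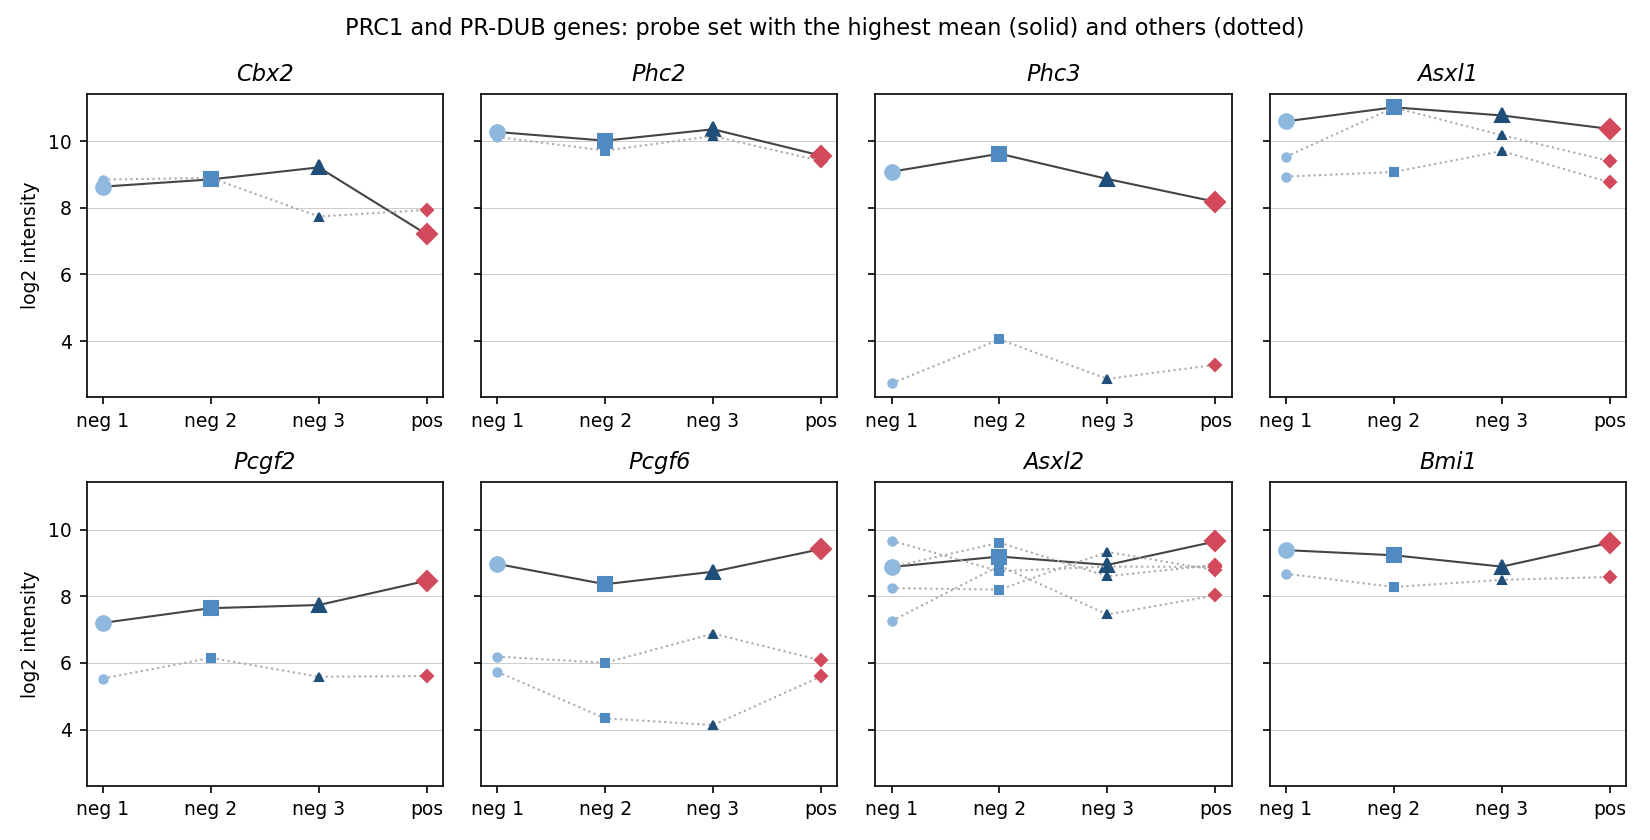
Log2 intensity on each array (3 negative, 1 labelled positive) for 8 PRC1 and PR-DUB genes, with the probe set of the highest mean as large markers on solid lines and the other probe sets as small markers on dotted lines. A line only joins the values of 1 probe set. In Phc2 and Asxl1 every probe set is lowest in the array labelled positive, whereas the probe sets of Cbx2, Pcgf2, Pcgf6 and Asxl2 do not share 1 pattern.

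Taking every probe set into account, few of the genes kept a side, much as among all genes with several probe sets. Of the 33 genes, 28 had more than 1 probe set. The probe sets shared the sign of the difference in 12 of these 28, against 42.4% of all genes with several. Every probe set lay below the negative range in Phc2 and Asxl1, 2 of the 28, where 3.91% of all genes with several probe sets did so. Every probe set lay above it in Rbbp7, 1 of the 28, where 4.88% of all genes did. The gap between the highest and the lowest difference of a gene's probe sets had a median of 0.93 log2 units in PRC1 and PR-DUB, 0.32 in PRC2 and 0.17 in the DNA methylation genes, and 0.48 over all genes with several. Averaging the probe sets brought the difference to -1.13 for Cbx2, -0.47 for Phc3, -0.27 for Cbx8, 0.43 for Pcgf6, 0.27 for Bmi1, 0.24 for Cbx7 and 0.13 for Asxl2. The average was -0.62 for Phc2 and -0.58 for Asxl1, and 0.20 for Tet1. It changed the sign in Pcgf5, to 0.14, and in Rnf2, to -0.04. In PRC2 it changed the sign in Ezh1, to 0.02, in Suz12, to -0.06, and in Jarid2, to -0.33.

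**Figure D3:**
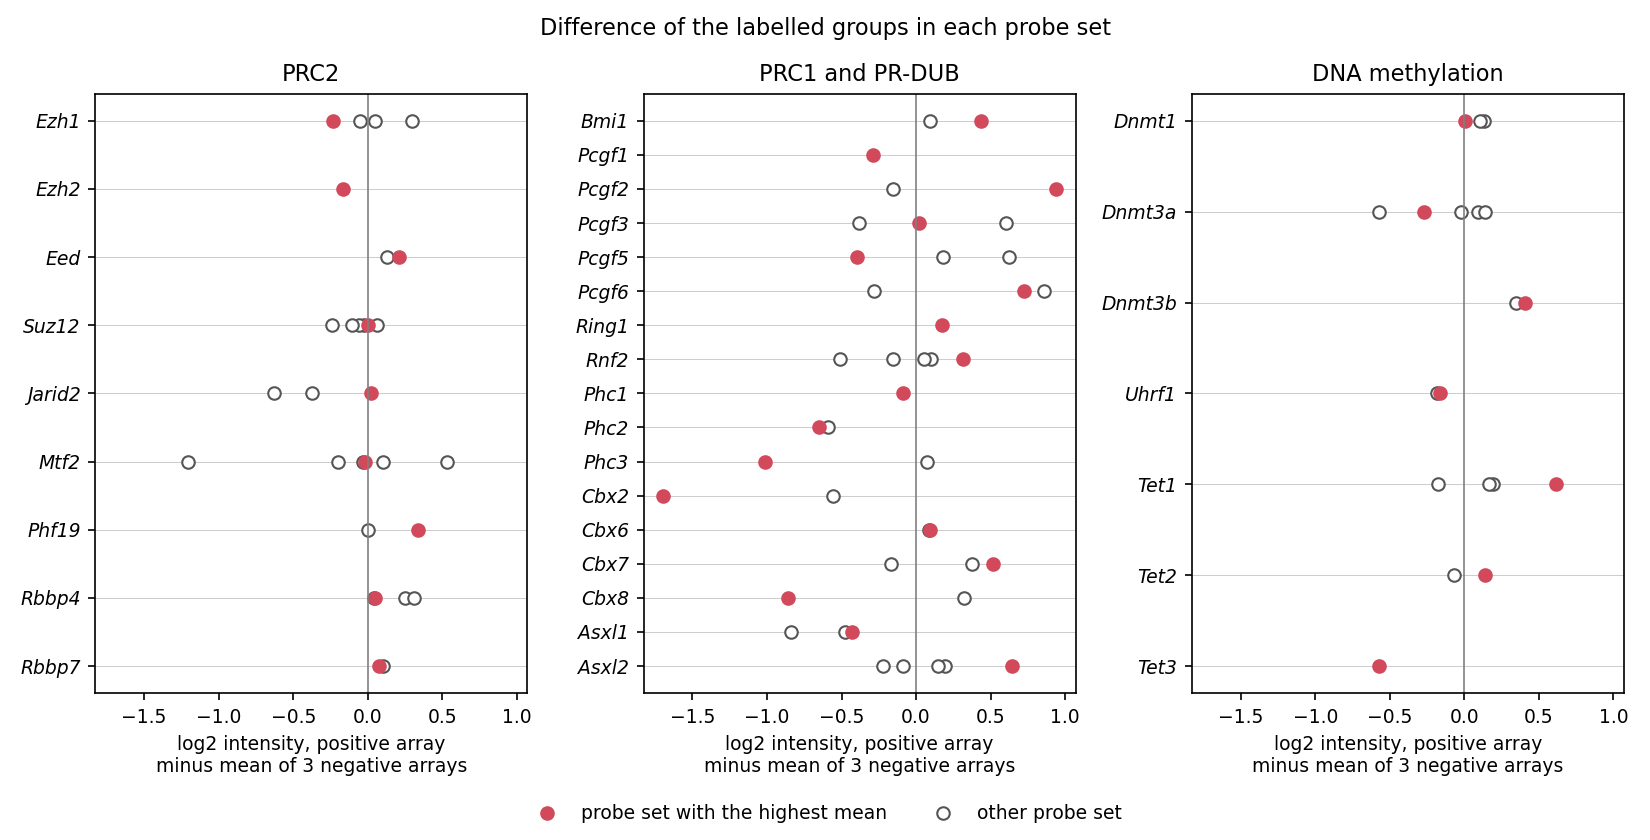
Difference between the array labelled positive and the mean of the 3 negative arrays, in log2 units, for every probe set of the 33 genes; filled points are the probe sets used and open points the others. Points lie on both sides of the line at 0 in many PRC1 genes, such as Pcgf5, from -0.40 in the probe set used to 0.63 in another, while the 3 probe sets of Dnmt1 run from 0.01 to 0.13.

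Maintenance methylation was the steadiest part of the DNA methylation group. Dnmt1 was at 11.70, 11.83 and 11.66 log2 units in negative replicates 1, 2 and 3 and at 11.74 in the array labelled positive. The range over the 4 arrays was 0.17, in a probe set of the _x_at kind. The other probe sets of Dnmt1 put the array labelled positive above the negative range, with differences of 0.13 and 0.11. Uhrf1, which brings DNMT1 to newly copied DNA, was at 12.13, 12.03 and 11.81 against 11.82. Negative replicate 3 and the array labelled positive were the lower arrays for Uhrf1, also in its second probe set, at 11.22, 11.24, 10.64 and 10.85. The labels overlapped in both probe sets of Uhrf1.

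The de novo enzymes placed the arrays in different orders. Dnmt3a was at 11.48, 12.00 and 11.26 in negative replicates 1, 2 and 3 and at 11.31 in the array labelled positive, inside the negative range. Its 5 probe sets differed by -0.57 to 0.14. Dnmt3b was at 10.90, 10.54 and 11.24 against 11.30, with replicate 3 and the array labelled positive the higher arrays. The second probe set of Dnmt3b had the same arrays on top, at 9.65, 9.58, 10.26 and 10.18. The difference between labels was 0.40 ± 0.34 (SE), with a limma adjusted p of 1, and the array labelled positive lay 0.06 above replicate 3. Macrophage, B lineage, granulocyte and endothelial marker sums set the same arrays apart from replicates 1 and 2, and their part in Dnmt3b and Uhrf1 was not tested.

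The TET dioxygenases had no common direction. Tet1 was at 9.10, 8.24 and 8.71 in negative replicates 1, 2 and 3 and at 9.30 in the array labelled positive, the highest by 0.20. In each of its other 3 probe sets the array labelled positive lay inside the negative range. Tet2, a frequent target of mutation in blood cancers, was at 10.09, 9.79 and 10.56 against 10.29, inside the range. Tet3, with a single probe set, was at 9.31, 9.18 and 9.58 against 8.79, and the array labelled positive was the lowest by 0.39. The differences were 0.62 ± 0.40 (SE) for Tet1, 0.14 ± 0.37 (SE) for Tet2 and -0.57 ± 0.25 (SE) for Tet3.

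The order of the arrays was also counted gene by gene. Negative replicate 2 was the lowest of the 4 arrays in 14 of the 33 genes, or 42.4%, where it was the lowest in 25.9% of all genes. These genes included Eed, Suz12, Ring1, Rnf2, Phc1, Cbx7, Cbx8, Dnmt3b, Tet1 and Tet2. The array labelled positive was the highest in 12, or 36.4%, where 23.6% of all genes had it highest, and the lowest in 8, where 23.0% did. The 12 include Rnf2 and Asxl2, where the choice of probe set depended on the array labelled positive. Negative replicate 3 was the lowest in 7 genes (19.5% of all genes), among them Ezh2, Bmi1, Dnmt1, Dnmt3a and Uhrf1, and negative replicate 1 in 4 (31.7% of all genes). As the highest array, negative replicate 1 was counted in 8 genes (21.0% of all genes), replicate 2 in 7 (26.8%) and replicate 3 in 6 (28.5%).

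The distance between arrays differed among the 3 groups of genes. Over all genes negative replicate 3 and the array labelled positive were the closest pair, with a median absolute difference of 0.21 log2 units, against 0.26 to 0.28 for the other 5 pairs. In the DNA methylation genes this pair was also the closest, at 0.08. PRC2 had it at 0.13, hardly closer than replicate 1 and the array labelled positive, at 0.14. In PRC1 and PR-DUB the pair of negative replicate 3 and the array labelled positive was the farthest, at 0.68. There the other 5 pairs had 0.23 to 0.45. Only Cbx2 was at least 1 log2 unit apart between these 2 arrays, 1 of the 33 genes, where 6.43% of all genes were. Replicates 1 and 2 were so far apart in 3 genes, Phc1, Cbx7 and Cbx8 (8.79% of all genes), replicates 2 and 3 in the same 3 (11.4%) and replicates 1 and 3 in 0 (10.9%). The array labelled positive was so far from replicate 1 in 3 genes (10.7% of all genes) and from replicate 2 in 5 (11.1%). At least 0.5 log2 units separated negative replicate 3 from the array labelled positive in 9 of the 17 PRC1 and PR-DUB genes, where 20.2% of all genes, and 23.0% of genes as bright, were so far apart. The 9 genes were Bmi1, Pcgf2, Pcgf6 and Asxl2, higher in the array labelled positive by 0.68 to 0.73, and Pcgf5, Phc2, Phc3, Cbx2 and Cbx8, lower by 0.68 to 2.01. This distance depended on the probe set. With all probe sets of a gene averaged it was 0.21 in PRC1 and PR-DUB against 0.19 over all genes, and with the probe set brightest over the negative arrays it was 0.40.

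**Figure D4:**
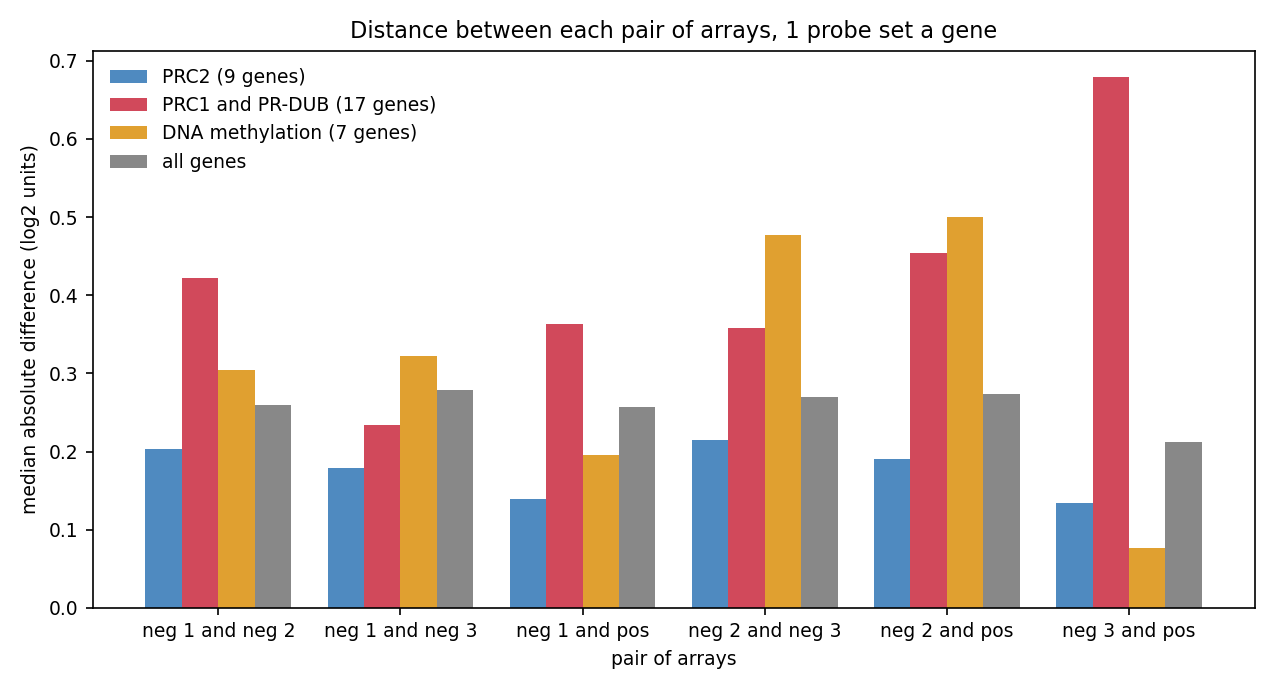
Median absolute difference in log2 intensity (bars from 0) between each of the 6 pairs of arrays, for the PRC2, PRC1 and PR-DUB, and DNA methylation genes and for all genes, with 1 probe set a gene. For negative replicate 3 and the array labelled positive, PRC1 and PR-DUB stands at 0.68 while PRC2 and the DNA methylation genes stand at 0.13 and 0.08.

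Other genes of the same pathways were taken from lists of their known members, and the first 4 printed from each list are those with the largest absolute moderated t. Over all genes 23.6% lay above the negative range, 23.0% below it and 53.4% within it. Of 8 further PRC2 and H3K27 genes, 2 lay above, 2 below and 4 within the negative range. Among them Kdm6b, a demethylase that removes the PRC2 mark, differed by -0.65 ± 0.25 (SE), Phf1, a PRC2 accessory subunit, by 0.92 ± 0.46 (SE), Aebp2, another, by 0.38 and Kdm6a, a demethylase, by -0.23. Of 20 further PRC1 and PR-DUB genes measured out of 24 listed, 3 lay above, 5 below and 12 within. Foxk1, a PR-DUB partner, differed by -0.48, Mga, which scaffolds the PCGF6 complex, by -0.48, E2f6, its partner, by 0.34 and Bcorl1, a BCOR relative, by 0.66. limma called 0 genes in either list at an adjusted p under 0.05, with 0 at an unadjusted p under 0.05.

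Further DNA methylation genes, 18 measured of 22 listed, had 4 above, 5 below and 9 within the negative range. Of all genes, 23.6%, 23.0% and 53.4% lay so. Zbtb4, a methyl-CpG binding zinc finger protein, differed by -1.72 ± 0.73 (SE), with its negative replicates at 9.47, 8.71 and 7.76 and the array labelled positive at 6.93. Uhrf2, a relative of Uhrf1, differed by -0.90, Mbd1, a methyl-CpG reader, by 0.71 and Zbtb38, another, by 0.47. The trithorax list holds subunits of the enzymes that methylate lysine 4 of histone H3 and also Kdm5a, Kdm5b and Kdm5c, demethylases of the same lysine. It had 5 above, 3 below and 7 within among 15 measured of 16 listed. Psip1, which tethers the MLL complex to chromatin, differed by 0.49, Men1, its partner, by -0.55, Setd1b by 0.32 and Kmt2b by 0.52, both methyltransferases. Kdm5a was among the 3 genes below, with a difference of -0.43. The medians of these 4 lists ran from -0.01 to 0.05 log2 units, and limma called 0 of their genes, with 0 at an unadjusted p under 0.05.

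Proliferation genes were set beside the group because Ezh2, Dnmt1 and Uhrf1 are known to follow the cell cycle. Of 19 measured proliferation markers, 5 lay above the negative range, 2 below and 12 within it. Of all genes, 23.6% lay above, 23.0% below and 53.4% within. The median difference of the 19 markers was 0.11 log2 units. Mki67, a marker of cycling cells, was at 12.72, 12.70, 12.73 and 12.72 on the arrays in order, and Pcna, the replication clamp, at 12.89, 12.89, 12.91 and 12.90. Their ranges over the 4 arrays were 0.03 and 0.02 log2 units. The 4 with the largest absolute moderated t all lay on the higher side. Birc5 differed by 0.46, Ccna2 by 0.35, Bub1 by 0.73 and Cdk1 by 0.28. In each of the 4, negative replicate 3 was the highest negative array, as in Birc5, at 10.92, 11.05, 11.36 and 11.57. Aurkb, within the negative range, also had negative replicate 3 and the array labelled positive on top. Other cell division genes did not follow these 4. Ccnb2 lay below the negative range, with a difference of -0.25, and Top2a and Aurka lay within it, with -0.14 and 0.09. limma called none of the 19 markers (0 at an unadjusted p under 0.05).

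The promoters were searched for letters of the kind E2F factors bind, since cell cycle genes often carry them. RefSeq promoter windows of 300 bases (GRCm38.p6, 250 before to 50 after a start site) were at hand for 31 of the 33 genes. TTTCCCGC or TTTGGCGC, on either strand, stood in a window of 4 of the 31 genes, namely Ezh2, Suz12, Phf19 and Dnmt1, and in 2.77% of 14452 genes on the arrays. Of 17 proliferation markers 4 had them, Mcm3, Mcm5, Mcm6 and Mcm7. The stretches upstream of the start in Phf19 (chr2:34914157-34914204, minus strand) and Suz12 (chr11:79992867-79992914, plus strand) are shown 5′ to 3′ on the gene's strand, with the letters found in capitals, as the PRC2 subunits whose match lies upstream. The capitals begin at position -208 in Phf19, where they read as the reverse complement, and at -219 in Suz12.
Phf19: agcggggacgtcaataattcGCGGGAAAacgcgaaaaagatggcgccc
Suz12: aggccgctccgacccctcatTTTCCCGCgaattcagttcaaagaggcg
A match of letters is a description and not a binding site. Across the 4 arrays Suz12 ranged over 0.32 log2 units, Phf19 over 0.76, Ezh2 over 0.44 and Dnmt1 over 0.17. The windows also held many CpG dinucleotides. Taking the window with the most in each gene, the median was 30 in the 31 genes and 18 in the 14452 genes. The 31 genes had 42 windows and the 14452 genes 18109, and more windows favour a higher count and a match.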

How the data were processed

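Per the labels' protocols, each sample's 5 ng of total RNA went through Nugen Ovation amplification and biotin labelling for Affymetrix arrays. Per the submitters' processing notes the authors used RMA; its version is not given in the sources used here. As deposited, each value is a linear intensity of a probe set, none of them at or below 0, although log2 values are usual for RMA. They were turned into log2 here, with no pseudocount, as the design set out for linear values. RMA equalizes the arrays (gene medians of 7.22 to 7.26 log2 units), which hides any change in total RNA per cell, and no detection calls were used. Array number limits the precision.

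Of 45101 probe sets, 34945 carried 1 gene symbol; symbols were updated by gene ID (GRCm38.p6). limma 3.58.1 in R 4.3.3 compared the labels over 18193 genes (lmFit, eBayes, two-sided, Benjamini-Hochberg, threshold 0.05, 2 residual degrees of freedom) and was tested on simulated data. Alternatives were cyclic loess, a level filter, trend and robust eBayes, averaged probe sets, another choice of probe set, an added constant of 32, each negative replicate left out, treat and a fit of all probe sets. The genes and lists were chosen with earlier results of these data known. All 33 genes are named; values in every array are given for the catalytic and core genes and for those with the largest difference or widest range in each group, and up to 4 genes of each other list by absolute moderated t.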

Additional observations from a re-analysis of the deposited data

How the results depend on the processing

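With 1 array against 3 hardly any gene can pass limma's adjusted test, so its 0 calls say nothing about stability. It called 0 of the 33 genes under every alternative run, with 1 to 4 of them (of 91 probe sets in the fit of all probe sets, of 33 genes otherwise) at an unadjusted p under 0.05. Over all genes it called 0 under every alternative too, with 273 (treat) to 2032 (all probe sets) unadjusted and 622 with trend and robust settings. Without negative replicate 3 the unadjusted count was 1479, in place of 734. Of the 33 genes, 21 kept the sign of their difference under every alternative that gives a value per gene. Averaging probe sets turned 5 (Ezh1, Suz12, Jarid2, Pcgf5 and Rnf2), and taking the probe set brightest over the negative arrays turned 3 (Jarid2, Rnf2 and Asxl2), the latter to -0.22 for Asxl2 and -0.51 for Rnf2. With averaged probe sets 0 genes lay at least 1 log2 unit outside the negative range, in place of 1. The median difference of PRC1 and PR-DUB was -0.22 with the probe set brightest over the negative arrays, in place of 0.02. The distance between negative replicate 3 and the array labelled positive, an outcome singled out after seeing the data, was 0.21 in PRC1 and PR-DUB with averaged probe sets and 0.40 with the probe set brightest over the negative arrays, and 0.13 in the DNA methylation genes with averaged probe sets. Leaving out each negative replicate in turn kept the count outside the range at 1, but it turned the sign of 3, 5 and 4 of the 33 genes (replicates 1, 2 and 3). None of these had a difference of 0.3 log2 units or more in size with all arrays in, though Phc1 went from -0.09 to 0.32 without replicate 1. Without negative replicate 2 the difference was 0.04 in place of 0.52 for Cbx7, -0.06 in place of -0.27 for Dnmt3a and -1.32 in place of -0.86 for Cbx8. Without negative replicate 1 it was -0.46 for Cbx8, and without negative replicate 3 it was -0.43 for Dnmt3a. No paired analysis was possible because the labels share only replicate number 1. Probe sets without detection calls limit what can be said of dim ones, such as the second of Phc3.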
